A study of Macaca fascicularis with 48 samples.

Results

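Motile cilia of ependymal cells, the epithelium that lines the central canal of the spinal cord, were described here through the 61 genes, of 16842 in the count table, whose symbols begin with DNAH, DNAI, CFAP, RSPH, TEKT or DRC followed by a number, or are FOXJ1, RFX2, RFX3 or IQCK. The rule uses gene names and no measured value, and it was written with earlier results of these data known. It gave 31 CFAP genes, 11 axonemal dynein heavy chain genes (5 of the outer and 6 of the inner arm), 2 dynein intermediate chain genes, 5 radial spoke genes, 3 genes of the nexin-dynein regulatory complex, 5 tektin genes, the 3 transcription factors and IQCK. RNA was sequenced from 48 pieces of tissue of cynomolgus monkeys (Macaca fascicularis): liver, the cervical, thoracic and lumbar spinal cord, and the cervical and lumbar dorsal root ganglia, with 4 control and 4 treated libraries in each. Control animals were dosed at 0 mg/kg/day and treated animals at 6 mg/kg/day of GS-8873, an inhibitor of hepatitis B virus transcripts given by oral gavage over 13 weeks. No genotype or age was stated, and each group of 4 held 2 males and 2 females. The library descriptions named 10 animals. The same 4 controls gave every tissue, and the same 4 treated animals gave liver and cord, while the treated ganglia came from 6 animals, these 4 among them. The submitters' design text counted 4 treated animals. Libraries numbered 1 to 4 are therefore the same animals across liver and cord, and in the control ganglia too.

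As background, a motile cilium beats because dynein arms slide the doublet microtubules of its axoneme against each other. Outer arms set the beat frequency and inner arms shape the stroke, while radial spokes and the nexin-dynein regulatory complex control the arms. FOXJ1 is the transcription factor that switches on motile cilia genes, and RFX2 and RFX3 act with it. Ependymal cells carry tufts of such cilia and move cerebrospinal fluid, whereas neurons, Schwann cells, satellite glia and hepatocytes are not known for motile cilia. Many of the 61 genes are also used outside motile cilia, so the label of ependyma is not assumed below. Levels in whole cord, ganglia and liver cannot tell ependyma from the other cells of cord, so they do not test that label.

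The libraries held between 35453786 and 53480762 counted reads, and levels are given as CPM, the count scaled to a common library size with TMM over all 48 libraries. The lumbar cord libraries of control 1 and treated 1 stood apart. The oligodendrocyte gene MOG fell as low as 0.0739 CPM in them, while the remaining 22 from cord had 268.9 CPM or more, and the astrocyte gene GFAP was as low as 38.8 CPM there with 5965 CPM or more elsewhere in cord. FOXJ1 and the tektin gene TEKT1 had 0 counts in both libraries, and 19 of the 56 members described across cord lay in both below all the other 22. The share of all genes that lay so was not counted, so this count does not set the members apart from other genes. The cervical library of control 1 had 14.1 CPM of the neuronal gene SNAP25, which was at 148.2 CPM or more in all other cord libraries but the 2 lumbar ones. Counts of calls on cord are also given without the lumbar ones, and those on organs without the cervical one too. Of 8 genes of choroid plexus, another ciliated epithelium, the transcription factor OTX2 stayed at or under 0.0389 CPM in cord and TTR between 0.206 and 13.7 CPM. AQP1, a water channel that other cells make as well, reached 409 CPM in cord and KCNJ13 31.7 CPM, and KCNJ13, FOLR1, SLC4A5 and KL were called higher in control cord than in control ganglia. The 8 genes summed to between 46.9 and 419 CPM in cord and between 81.8 and 538 CPM in ganglia, and their part in the results was not tested. In pieces of whole tissue, fewer cells of a type and less RNA per cell cannot be told apart.

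In control cord, 48 of the 61 genes averaged at least 1 CPM, against 29 in control ganglia and 25 in control liver. None had 0 counts throughout the 12 control cord libraries. CFAP161 and CFAP97D1 had 0 counts in all 8 control ganglion libraries, and CFAP161, CFAP73, CFAP97D1, DRC7, RSPH14 and TEKT4 in all 4 control liver libraries. Cord had the highest mean of the 3 organs for 46 genes, liver for 9 and ganglia for 6. The summed level per kilobase without the 3 most abundant members was between 73.3 and 181 CPM per kilobase in the control cord libraries, between 62.7 and 71.2 in control ganglia and between 54.3 and 70.3 in control liver. The sums in cord lay above those in ganglia and liver, which overlapped with each other.

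To compare genes with each other, levels were divided by gene length. IQCK, which encodes a protein with a calmodulin-binding IQ motif, stood at 78.2 ± 23.1 CPM per kilobase in control cord (SD, n = 12 libraries of 4 animals) and made up 31.2% of the sum over all members. CFAP36, whose product binds the small GTPase ARL3, followed at 46.9 ± 15.7 CPM per kilobase and CFAP20, a protein of the inner junction of doublet microtubules, at 25.4 ± 6.85. These 3 genes lie far above the rest. The other members with the highest level of their class were RSPH3 (7.92 CPM per kilobase), a protein of the spoke stalk, DRC1 (4.50), the scaffold of the regulatory complex, RFX2 (3.11), TEKT1 (1.81), the intermediate chain DNAI1 (1.76), the outer arm heavy chain DNAH9 (0.912) and the inner arm heavy chain DNAH1 (0.393). The lowest of each class were RFX3 (1.42 CPM per kilobase), DNAI2 (0.359), RSPH14 (0.338), TEKT4 (0.113), DRC7 (0.108), DNAH3 (0.0692), DNAH8 (0.0426) and CFAP97D1 (0.00293). FOXJ1 lay between RFX2 and RFX3 at 1.82 ± 1.12 CPM per kilobase. The spread between libraries was wider than the mean for TEKT1 (SD 2.06) and DNAH1 (SD 0.428), and narrow for RSPH3 (SD 1.83).

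**Figure D1:**
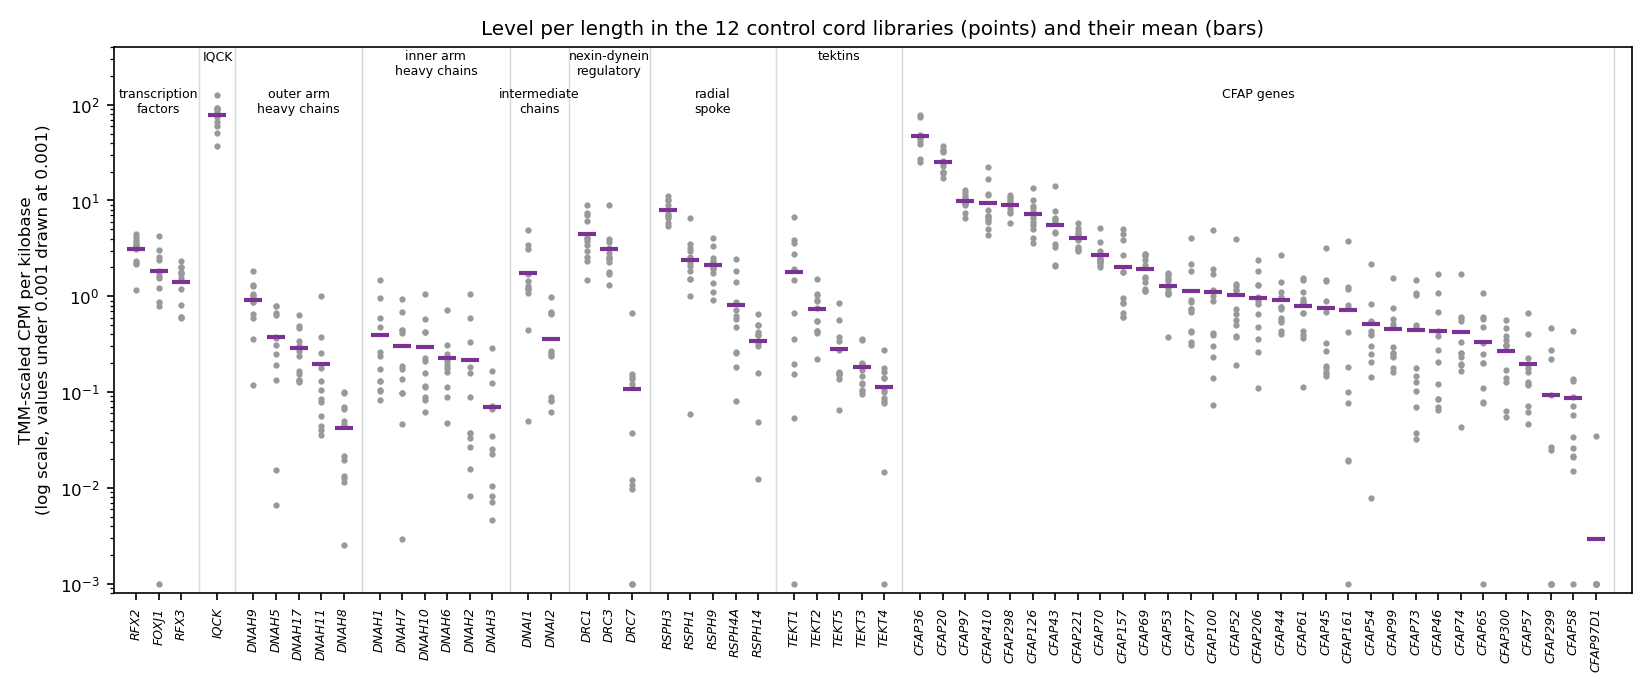
Level per length of the 61 genes in control cord, by class; the vertical axis is TMM-scaled CPM per kilobase on a log scale, points are the 12 control libraries and bars their means. IQCK (78.2), CFAP36 (46.9) and CFAP20 (25.4) lie highest, and the means of the dynein heavy chains stay under 1.

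Against ganglia, the regulators, the dynein heavy chains DNAH1 and DNAH5, the tektin TEKT1 and the central apparatus gene CFAP54 were higher in control cord, while CFAP97 and CFAP61 were lower. Of 59 members tested, 32 were called higher and 2 lower in cord (edgeR quasi-likelihood test with animal as block, Benjamini-Hochberg adjusted p under 0.05). The share called, 57.6%, stands beside 61.9% of all 15008 genes, and the share called higher, 54.2%, beside 32.4%. The members' median log2 difference was 0.93, and that of all genes 0.04. CFAP161 had 0 counts in control ganglia, so it could only be higher in cord. Leaving out the lumbar library of control 1 gave 34 higher and 2 lower, and leaving out its cervical library too gave 38 and 2. No call was lost in either fit. RSPH14 and RSPH4A were added in both, and CFAP99, CFAP206, DNAH3 and DNAH9 in the second.

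Against liver, 44 of the 59 members were called higher and 6 lower in cord. That is 84.7% of members beside 76.0% of all genes, and 74.6% higher beside 42.2%. The members' median log2 difference was 2.38, and that of all genes 0.19. Scaling by total counts moved the median of all genes to 1.27 and the members' median to 3.46, with 50 called higher and 2 lower. Leaving out the lumbar library of control 1, or its lumbar and cervical libraries, gave 45 higher and 6 lower, with CFAP99 added and no call lost. Ganglia against liver gave 27 members higher and 11 lower, beside 75.4% of genes called and 40.7% called higher, and 39 higher and 7 lower with total counts, where the median of all genes was 1.32.

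FOXJ1, at 73485265 to 73489929 on the minus strand of chromosome 16 in Macaca_fascicularis 5.0, was at 2.55, 2.31, 4.79 and 12.3 CPM in the control cervical libraries, at 5.20, 8.76, 4.48 and 7.51 in the thoracic and at 0, 5.35, 6.94 and 3.55 in the lumbar ones. In the control ganglia it lay at 1.88, 2.06, 1.27 and 1.04 CPM in the cervical and 1.80, 1.81, 1.03 and 1.62 CPM in the lumbar region. Control liver stayed at or under 0.243 CPM. Apart from the lumbar library of control 1, every control cord library exceeded every ganglion library, and every ganglion library exceeded liver. The log2 difference was 1.63 ± 0.63 (SE) between cord and ganglia (adjusted p = 0.0332) and 6.04 ± 1.19 between cord and liver (adjusted p = 0.000181). The call of FOXJ1 against ganglia was lost without control 2 (1.69, adjusted p = 0.114), control 3 (1.31, adjusted p = 0.185) or control 4 (1.31, adjusted p = 0.161) and with limma (1.26, adjusted p = 0.153). Without the lumbar library of control 1 the FOXJ1 difference was 1.86 (adjusted p = 0.000641).

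RFX2 and RFX3, which bind the X-box motifs of cilia genes, were also higher in cord than in both other organs. RFX2 averaged 12 ± 3.71 CPM in control cord, 2.76 ± 1.76 in ganglia and 0.416 ± 0.242 in liver. Its log2 differences were 2.2 ± 0.22 against ganglia (adjusted p = 2.49e-07) and 4.87 ± 0.37 against liver (adjusted p = 1.53e-09). RFX3 was likewise higher in cord, at 5.77 ± 2.55 CPM against 0.888 ± 0.285 in ganglia and 1.14 ± 0.335 in liver. The RFX3 log2 differences were 2.61 ± 0.25 against ganglia and 2.28 ± 0.34 against liver (adjusted p = 1.35e-07 and 8.60e-06). For RFX3 the difference between ganglia and liver was not called (-0.34 ± 0.32, adjusted p = 0.339).

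IQCK lies at 19095278 to 19236842 on the plus strand of chromosome 20. Its levels in control cord were 187, 232, 201 and 225 CPM in the cervical, 236, 209, 232 and 320 in the thoracic and 94.1, 130, 153 and 167 in the lumbar region. Control ganglia lay between 45.7 and 79.0 CPM and control liver between 6.26 and 8.87 CPM, so the 3 organs did not overlap for IQCK. The log2 difference was 1.8 ± 0.11 against ganglia and 4.79 ± 0.19 against liver (adjusted p = 9.27e-10 and 1.23e-13). The receptor gene GPRC5B ends 308 bases from IQCK on the opposite strand and had log2 differences of 2.47 ± 0.16 and 5.10 ± 0.25 in the same contrasts. IQCK counts were 0.255 to 0.501 of the GPRC5B counts in control cord, 0.448 to 0.579 in control ganglia and 0.317 to 0.472 in control liver. Across the 22 cord libraries without the 2 that stood apart, the log2 levels of both genes had a correlation of 0.69. The reads were counted without strand, and the part of GPRC5B in the IQCK values was not tested. In the 2 lumbar libraries with almost no MOG, IQCK was at 94.1 and 131 CPM, above every ganglion library.

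**Figure D2:**
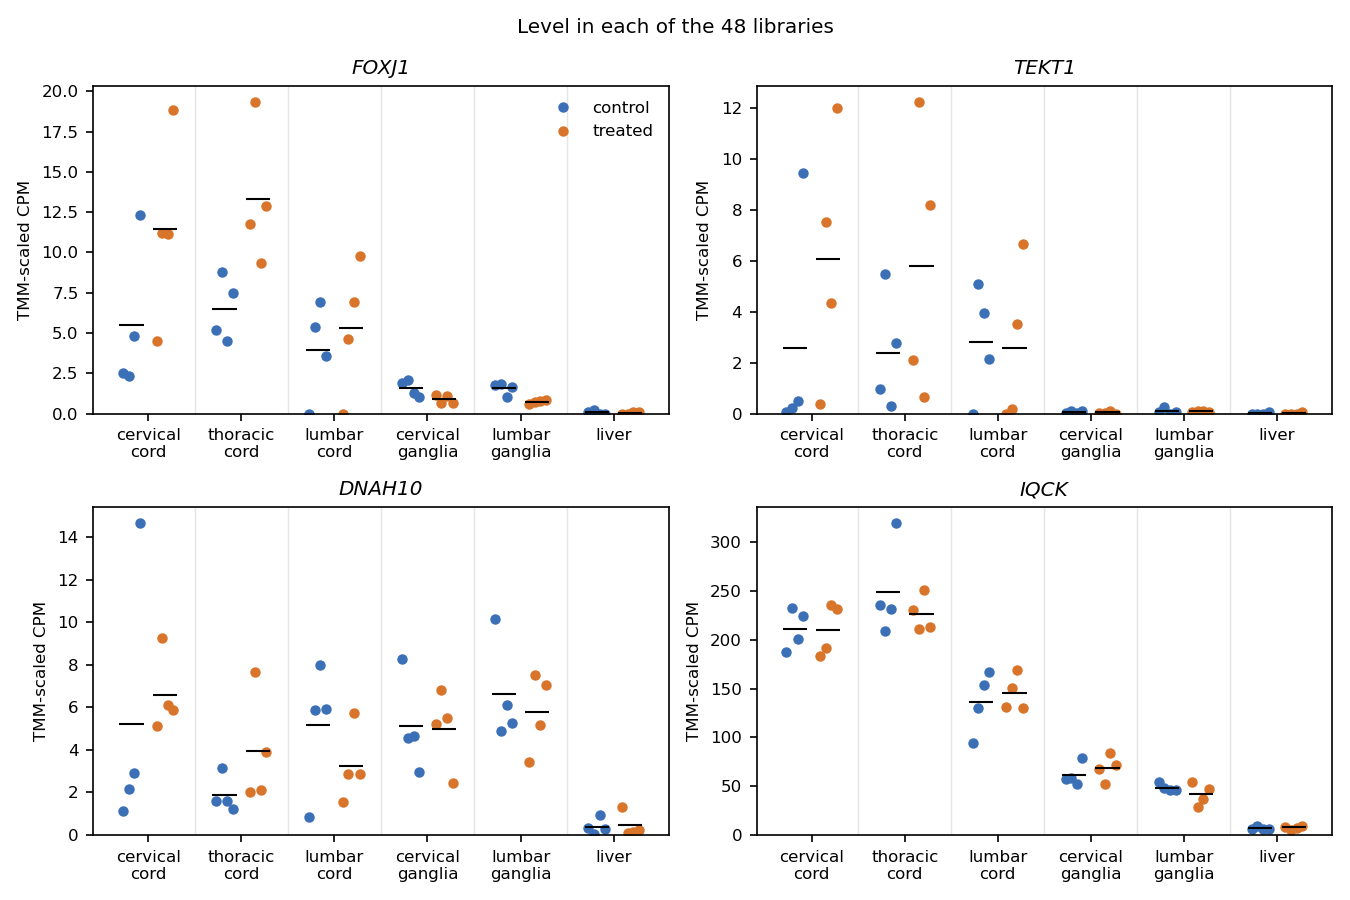
Level of FOXJ1, TEKT1, DNAH10 and IQCK in each of the 48 libraries; the vertical axis is TMM-scaled CPM, the horizontal axis the 6 tissues, and points are libraries, with controls and treated in different colours. IQCK separates cord, ganglia and liver, DNAH10 is as high in ganglia as in cord, and TEKT1 stays at or under 0.259 in ganglia.

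Dynein arms did not follow a single organ pattern. Among the outer arm heavy chains, DNAH5 was at 5.25 ± 3.93 CPM in control cord, 0.738 ± 0.215 in ganglia and 0.135 ± 0.0404 in liver, and was called higher in cord in both contrasts (2.57 ± 0.61 and 5.08 ± 1.02). DNAH11, whose exons share 7.10% of their bases with CDCA7L on the other strand, was called higher in both as well. DNAH9, the most abundant per length, was at 13.8 ± 6.83 CPM in cord and 8.99 ± 1.63 in ganglia, which did not pass the test (0.42 ± 0.35, adjusted p = 0.303). DNAH8 was called higher in cord than in ganglia (1.67 ± 0.52) and lower than in liver (-1.56 ± 0.56). DNAH8 in liver averaged 1.73 ± 1.36 CPM, and the call against liver was lost without control 1 (-1.10, adjusted p = 0.0985) or control 3 (-1.50, adjusted p = 0.0656) and with total counts (-0.49, adjusted p = 0.441).

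The inner arm heavy chains split further. DNAH1 was higher in cord than in ganglia (5.13 ± 5.58 against 0.390 ± 0.169 CPM, log2 3.45 ± 0.58, adjusted p = 6.89e-05), and its level in liver, 4.08 ± 2.04 CPM, did not differ from cord by the test (0.15 ± 0.63, adjusted p = 0.843). DNAH6 was higher in cord than in ganglia and higher still in liver, at 2.90 ± 2.18, 1.01 ± 0.207 and 6.71 ± 3.59 CPM, and the call of DNAH6 against liver was lost with total counts (-0.20, adjusted p = 0.651). DNAH7 and DNAH10 had higher means in ganglia than in cord. DNAH7 was at 3.84 ± 3.59 CPM in cord, 5.70 ± 2.21 in ganglia and 0.0565 ± 0.0377 in liver. DNAH10 was at 4.09 ± 4.03, 5.86 ± 2.30 and 0.399 ± 0.384 CPM. Neither differed between cord and ganglia by the test (-0.96 ± 0.63, adjusted p = 0.193, and -0.77 ± 0.51, adjusted p = 0.199), and without control 4 the DNAH10 difference was -1.33 (adjusted p = 0.0433).

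The intermediate chains of the outer arm showed opposite signs. DNAI1 was higher in cord than in ganglia (4.55 ± 3.60 against 0.699 ± 0.259 CPM, log2 2.38 ± 0.42, adjusted p = 9.64e-05) and near its liver level of 3.90 ± 1.19 CPM. DNAI2 was at 0.840 ± 0.718 CPM in cord and 1.4 ± 0.622 in ganglia (-1.0 ± 0.59, adjusted p = 0.150). Without control 4 the DNAI2 difference was -1.64 (adjusted p = 0.0164). DNAI2 in liver was at 0.132 ± 0.129 CPM.

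Radial spoke genes were all called higher in cord than in liver (5 of 5), beside 42.2% of all genes. Against ganglia 2 of 5 were called higher, beside 32.4% of all genes. RSPH1, a spoke head protein, was at 4.54 ± 3.07 CPM in cord, 0.469 ± 0.130 in ganglia and 0.144 ± 0.0470 in liver (log2 3.10 ± 0.52 and 4.84 ± 0.81). RSPH9, a second spoke head gene, was at 4.16 ± 1.74, 2.19 ± 0.362 and 0.519 ± 0.0800 CPM. The stalk gene RSPH3 differed little, at 22.6 ± 5.22 CPM in cord and 21.3 ± 1.36 in ganglia (0.05 ± 0.10, adjusted p = 0.708). RSPH14 had 0 counts in control liver and was at least 17.9-fold higher in cord, taking 3 counts over the TMM-scaled size of the 4 liver libraries as the floor.

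In the regulatory complex, DRC3 was called higher in cord than in both other organs (6.77 ± 4.37 CPM against 2.31 ± 0.746 and 1.30 ± 0.317). DRC1 was at 9.63 ± 4.96 CPM in cord and 7.79 ± 1.59 in ganglia (0.23 ± 0.28, adjusted p = 0.486), with 0.165 ± 0.125 CPM in liver (log2 5.85 ± 0.55). DRC7 was near its detection limit, at 0 to 2.51 CPM in cord, 0 to 0.0791 in ganglia and 0 counts in liver. The DRC7 calls rest on control 4, without which neither contrast was called, and the call against liver was also lost without control 2 (adjusted p = 0.0585).

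Among tektins, which form filaments inside the doublets, TEKT1 had the highest level per length in cord. Its levels were 0.0760, 0.220, 0.506 and 9.48 CPM in control cervical cord, 0.957, 5.47, 0.281 and 2.76 in thoracic and 0, 5.10, 3.94 and 2.13 in lumbar cord. No ganglion library exceeded 0.259 CPM, and 3 of the 12 control cord libraries also lay at or under that value. The log2 differences of TEKT1 were 4.64 ± 0.98 against ganglia (adjusted p = 0.000552) and 6.93 ± 1.71 against liver (adjusted p = 0.00139). TEKT2 was higher in cord than in ganglia by 1.22 ± 0.27, and TEKT3, TEKT4 and TEKT5 did not pass that test. TEKT3 and TEKT4 were nonetheless called higher in cord than in liver, and TEKT4 had 0 counts there.

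CFAP genes held the widest range. CFAP161, a protein inside the doublet microtubules, had 0 counts in control ganglia and liver and 0 to 7.58 CPM in control cord, which is at least 206-fold higher than ganglia and at least 50.2-fold higher than liver on the floor of 3 counts over the group. CFAP54 was at 4.87 ± 5.26 CPM in cord and 0.114 ± 0.0505 in ganglia (log2 5.05 ± 0.68, adjusted p = 6.21e-06). CFAP100, a modifier of inner arms, followed at 2.75 ± 3.36 against 0.130 ± 0.0750 CPM (4.03 ± 0.68, adjusted p = 6.41e-05). In CFAP161, CFAP54 and CFAP100 the SD in cord exceeded the mean, and the CFAP161 call against liver was lost without control 2 (adjusted p = 0.0744).

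In the opposite direction, CFAP97 was lower in cord than in both other organs, at 50.0 ± 8.90 CPM against 71.9 ± 9.09 in ganglia and 64.6 ± 9.72 in liver (-0.54 ± 0.09, adjusted p = 4.15e-05, and -0.36 ± 0.11, adjusted p = 0.00623). The CFAP97 call against liver was lost without control 2 (-0.25, adjusted p = 0.0973) or control 4 (-0.26, adjusted p = 0.0939). With total counts the CFAP97 difference from liver became 0.72, and that of CFAP20 went from -0.67 to 0.42. CFAP61, a gene of the spoke base that shares 2.70% of its exon bases with CRNKL1, was at 3.82 ± 2.14 CPM in cord and 6.50 ± 0.852 in ganglia (-0.90 ± 0.31, adjusted p = 0.0188). The CFAP61 call was lost without control 1 (-0.67, adjusted p = 0.0690) or control 2 (-0.96, adjusted p = 0.0801) and in the treated animals (-0.40, adjusted p = 0.315). CFAP73, with 9.20% of exon bases shared with DDX54, was at 0.476 ± 0.535 CPM in cord and 0.683 ± 0.296 in ganglia (-0.80 ± 0.67, adjusted p = 0.317), and had 0 counts in control liver, where cord was at least 16.6-fold higher. Against ganglia CFAP73 was called lower without control 4 (-1.52, adjusted p = 0.0165) and with limma (-1.29, adjusted p = 0.0403), and it was at 0.21 in the treated animals.

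Liver had its own members. CFAP57, an adaptor of inner arm dynein, was at 9.51, 7.62, 16.3 and 13.3 CPM in the control liver libraries and at 0.177 to 2.56 CPM in control cord, with ganglia at 0.544 ± 0.146. The groups did not overlap, and the log2 difference of CFAP57 between cord and liver was -4.04 ± 0.42 (adjusted p = 1.23e-07). CFAP69, a central apparatus gene, was at 12.1, 66.8, 55.8 and 17.6 CPM in control liver and 8.46 ± 2.96 in cord (-2.02 ± 0.26, adjusted p = 1.71e-06).

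Sorting the 59 members by both contrasts left 24 that were called higher in cord than in ganglia and liver, among them FOXJ1, RFX2, RFX3, IQCK, CFAP161, CFAP54, DNAH5, RSPH1, DRC3 and TEKT1. Another 17 were called higher than liver in both cord and ganglia with no call between these, among them DNAH7, DNAH9, DNAH10, DRC1, RSPH3 and CFAP221. CFAP221 was at 13.5 ± 2.95 CPM in cord and 13.3 ± 2.28 in ganglia. CFAP69, DNAH6 and DNAH8 were higher in cord than in ganglia and lower than in liver. In all, 25 of the 59 members had no call between cord and ganglia, a contrast that called 61.9% of all genes. A higher level in the tissue that holds ependyma was thus measured for only part of the list. The shares of all genes with each of these patterns were not counted, so the counts describe the members alone. CFAP161 and DRC7 among the 24, and CFAP73, RSPH14 and TEKT4 among the 17, had 0 counts in control liver. Their direction against liver was fixed by the filter. The cells that carry each transcript were not measured.

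**Figure D3:**
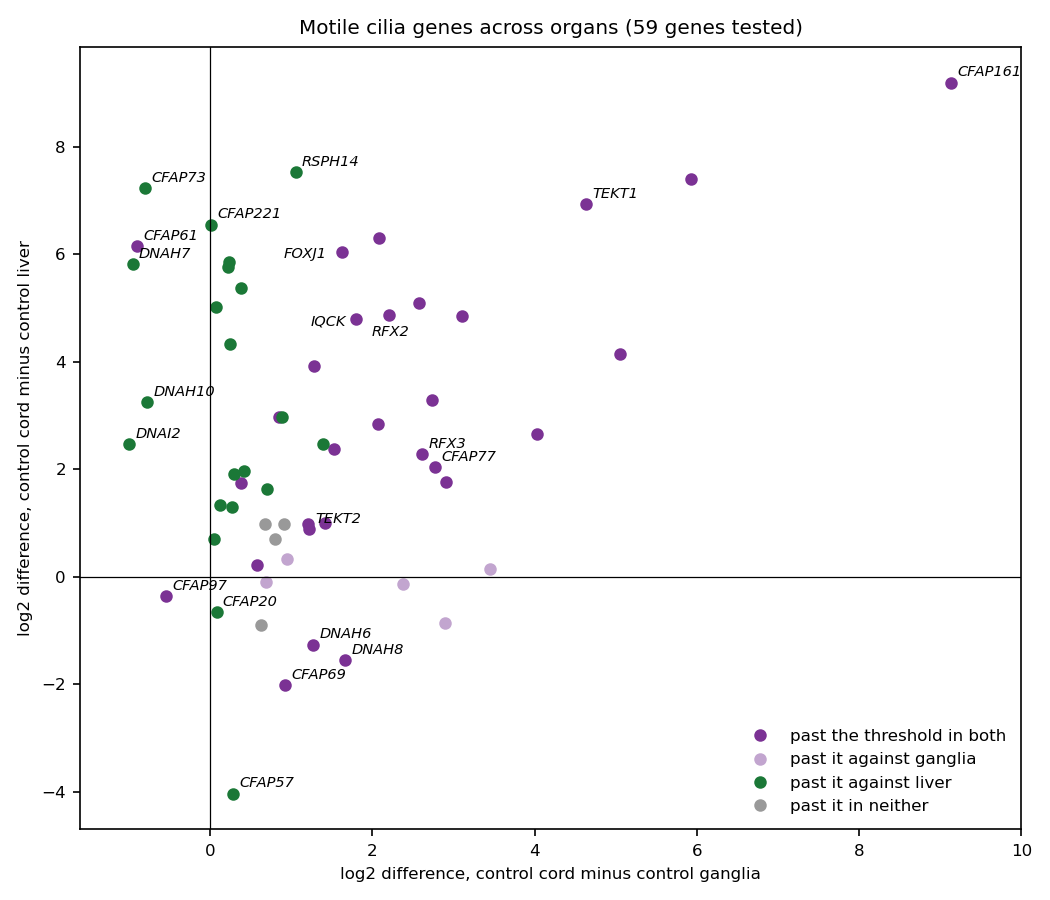
Log2 difference of the 59 members tested between control cord and control ganglia (horizontal axis) and between control cord and control liver (vertical axis); each point is a gene, coloured by its calls. Points at the upper right are higher in cord than in both (FOXJ1 at 1.63 and 6.04), and CFAP57 lies lowest at -4.04; the places of genes with 0 counts in an organ are fitted values and not bounds.

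Across the 22 cord libraries without the 2 that stood apart, members differed widely in how much they varied. RSPH3 spanned 16.5 to 32.2 CPM, a ratio of 1.96, and CFAP221 and CFAP97 spanned ratios of 2.05 and 2.15. IQCK spanned a ratio of 2.46. FOXJ1 went from 2.31 to 19.4 CPM, a ratio of 8.37, and the inner arm gene DNAH2 from 0.114 to 14.9 CPM, a ratio of 131. CFAP161, CFAP73, DNAH2 and DNAH11 had an SD above their mean.

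The cervical library of control 4 was the highest of the 22 for 22 of the 56 members described, and the thoracic library of treated 2 for 9. The shares of all genes with their highest level in these libraries were not counted, so the counts describe the members alone. CFAP46, a gene of the central apparatus, was at 0.513, 0.551, 0.662 and 13.4 CPM in the control cervical libraries. Within the control cervical libraries TEKT1 and CFAP161 were also highest in control 4, the latter with 0.0380, 0.154, 0.0389 and 7.58 CPM. Over the 22 libraries both were highest in the thoracic library of treated 2, at 12.3 CPM for TEKT1 and 7.80 CPM for CFAP161. Low and high libraries thus occurred within both the control and the treated group, and a fold change between groups of 4 rested on them.

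**Figure D4:**
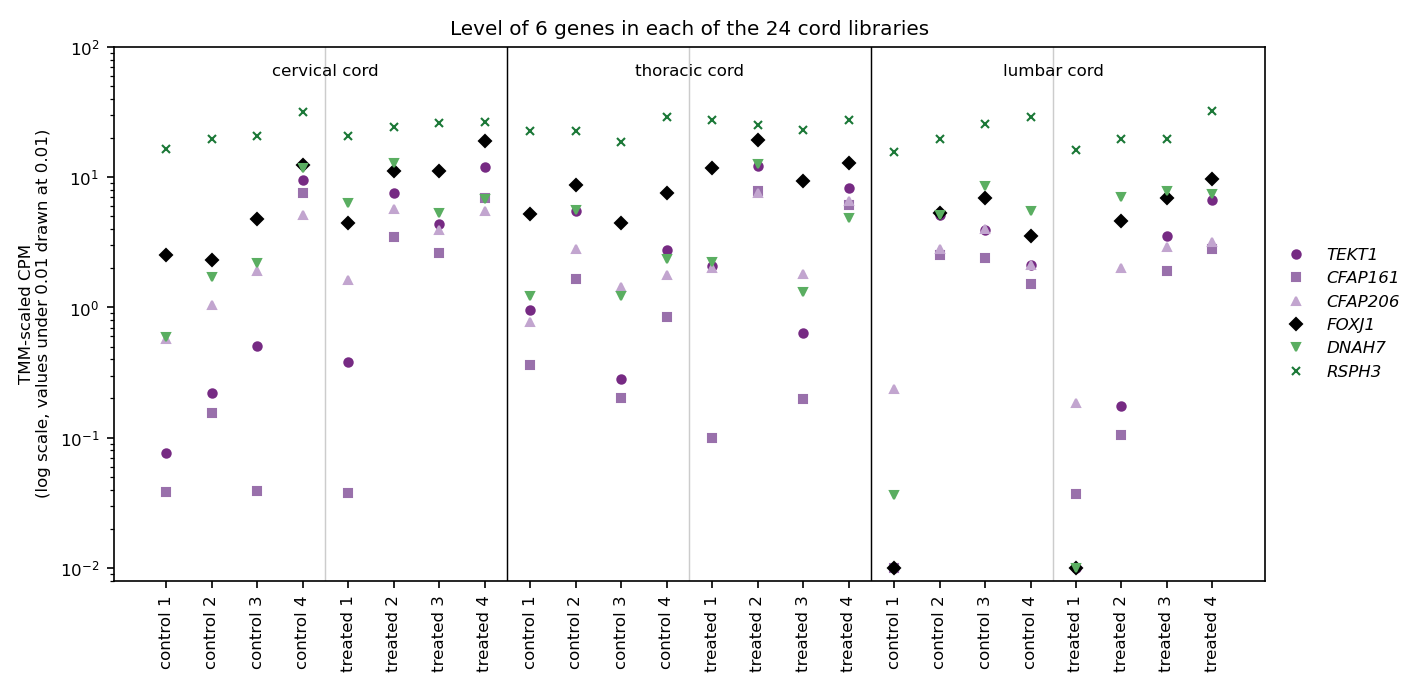
Level of TEKT1, CFAP161, CFAP206, FOXJ1, DNAH7 and RSPH3 in each of the 24 cord libraries; the vertical axis is TMM-scaled CPM on a log scale and the horizontal axis the libraries by region and treatment. RSPH3 stays within 15.6 and 32.2, while TEKT1 ranges from 0 to 12.3 and is at 0 in lumbar control 1 and lumbar treated 1.

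Between cord regions, CFAP20, CFAP36 and CFAP298 were higher in thoracic than in cervical and lumbar cord, and IQCK and RFX2 were lower in lumbar cord than in both other regions. Thoracic against cervical cord gave 12 calls among 59 members (5 higher, 7 lower, edgeR with animal as block), which is 20.3% beside 40.2% of all genes. CFAP20 (0.67 ± 0.11, adjusted p = 0.000521), CFAP410 (0.98 ± 0.23), CFAP36 (0.61 ± 0.15), RSPH9 (0.76 ± 0.26) and CFAP298 (0.25 ± 0.08) were higher in thoracic cord. CFAP58, CFAP43, RFX3, CFAP44, CFAP53, CFAP69 and CFAP97 were lower, with log2 differences from -1.99 to -0.34. FOXJ1 did not pass the test (0.53 ± 0.73, adjusted p = 0.597).

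Lumbar against thoracic cord gave 14 calls (4 higher, 10 lower), which is 23.7% beside 50.5% of all genes. CFAP20, CFAP36, CFAP298, RSPH9 and IQCK were lower in lumbar cord, as were RFX2, DNAH17, DNAI1, CFAP61 and CFAP77. The outer arm gene DNAH17 was at 4.52 ± 2.19 CPM in thoracic and 1.63 ± 0.396 in lumbar cord (SD, n = 8 libraries each, log2 -1.32 ± 0.24, adjusted p = 0.000431). DNAI1 was at 6.40 ± 3.29 against 2.40 ± 1.48 CPM (-1.65 ± 0.41, adjusted p = 0.00332). CFAP97, CFAP53, CFAP43 and CFAP58 were higher in lumbar than in thoracic cord.

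Lumbar against cervical cord gave only 2 calls among the members, beside 0.0555% of all genes (8 of 14419). RFX2 was at 8.32 ± 3.16 CPM in lumbar and 15.3 ± 3.39 in cervical cord (-0.91 ± 0.14, adjusted p = 0.0151), and IQCK at 141 ± 24.6 against 211 ± 22.4 CPM (-0.57 ± 0.10, adjusted p = 0.0395). Neighbouring regions in the order of IQCK, thoracic 238 ± 36.1 and cervical 211 ± 22.4 CPM, did not differ by the test (0.18 ± 0.10, adjusted p = 0.137). Without the 2 lumbar libraries that stood apart, RFX2 was called (-0.76, adjusted p = 0.0223) and IQCK was not (-0.51, adjusted p = 0.0504).

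The regions also differed in mitochondrial reads, with ranges that overlapped. The share of reads from mitochondrial genes ran from 10.5% to 37.3% in thoracic, 8.77% to 25.7% in cervical and 8.85% to 27% in lumbar cord, and its part in the differences between regions was not tested. Scaling by total counts turned 5 higher and 7 lower in thoracic cord into 2 and 13, while the median of all genes moved to -0.32, and turned 4 higher and 10 lower in lumbar against thoracic cord into 6 and 5, with that median at 0.38. Under that scaling CFAP36 (0.27, adjusted p = 0.102), CFAP298 and RSPH9 were no longer called between thoracic and cervical cord, nor CFAP20, CFAP36, CFAP298, CFAP61 and RSPH9 between lumbar and thoracic cord. The calls of RFX2 (-0.87, adjusted p = 0.0577) and IQCK (-0.53, adjusted p = 0.115) between lumbar and cervical cord were lost with total counts too. Between these regions, leaving out treated 1, treated 4 or control 4 left 0 calls, and leaving out control 1, 2 or 3 or treated 3 left 1, RFX2. Leaving out control 4 left 7 calls between thoracic and cervical cord, and leaving out control 2 or treated 1 left 9 between lumbar and thoracic cord. Without the 2 lumbar libraries that stood apart the 3 contrasts gave 14, 10 and 1 calls.

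Treatment with GS-8873 was compared with 0 mg/kg/day in each tissue, in cord with counts summed over the 3 regions of an animal, and in both ganglia together. No member passed the test in any of these 8 comparisons. The share of all genes called was 0.0% in liver, in each cord region, in summed cord and in cervical ganglia, 4.29% in lumbar ganglia (612 of 14267) and 0.943% in both ganglia (137 of 14535). At an unadjusted p under 0.05 the members counted 1 of 32 in liver, 2 of 58 in cervical, 3 of 56 in thoracic and 1 of 59 in lumbar cord, 2 of 60 in summed cord, 1 of 52 in cervical and 5 of 50 in lumbar ganglia and 2 of 55 in both, beside 8.32%, 9.53%, 2.33%, 1.74%, 3.49%, 7.35%, 22.6% and 11.5% of all genes.

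The balance of positive and negative differences turned with 1 library left out in cervical and in lumbar cord, and with 1 animal left out in summed cord. In cervical cord 48 of 58 were positive with a median log2 difference of 0.35, in thoracic cord 46 of 56 with 0.47, and in lumbar cord 14 of 59 with -0.39, beside 50.5%, 50.0% and 48.8% of all genes. Without treated 2 the cervical count was 26 of 58 with a median of -0.039, and the thoracic one 36 of 56 with 0.15. Without control 2 the lumbar count was 37 of 59 with a median of 0.19. Leaving out each library in turn gave medians from -0.039 to 0.96 in cervical, 0.15 to 0.71 in thoracic and -0.50 to 0.19 in lumbar cord. Without the cervical library of control 1 the cervical count was 41 of 59 with a median of 0.26, and without the 2 lumbar libraries that stood apart the lumbar one was 14 of 59. The test of whether the treatment difference varied between cord regions called none of 59 members and none of 14748 genes (0.0% of genes by limma with animal as random block, which had 107 genes at an unadjusted p under 0.05, and by edgeR, which had 62). Summed over regions 47 of 60 were positive with a median of 0.19, beside 51.3% of genes. Without treated 2 the summed count was 22 of 60 with a median of -0.18, and without control 1 it was 29 of 60 with -0.014, while the highest median without an animal was 0.37. A limma fit over the 21 libraries without the 3 doubted ones gave 35 of 59 and a median of 0.07. Since the members are read from the same libraries, these counts describe the libraries and are no test.

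By class, the inner arm heavy chains (6 of 6) and the radial spoke genes (5 of 5) were positive in both cervical and thoracic cord, with medians of 1.26 and 0.35 in the former and 1.00 and 0.51 in the latter. The outer arm heavy chains were positive for 2 of 5 in each, with medians of -0.08 and -0.26. In lumbar cord the same classes had medians of -0.85, -0.11 and -0.41. No member of these classes passed the test, and class medians without treated 2 or control 2 were not computed.

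The summed level of 8 oligodendrocyte genes overlapped between control and treated libraries in every cord region. It ran from 42328 to 71074 CPM in control and 40856 to 50515 in treated cervical cord, with medians of 52556 and 45942. In thoracic cord it ran from 56248 to 101606 and from 39749 to 77941 CPM (medians 72915 and 55417), and in lumbar cord from 13556 to 29532 and from 15700 to 42918 CPM (medians 22879 and 26652). Sums of 7 astrocyte genes had medians of 17941 and 16063, 30231 and 24334, and 9288 and 14301 CPM in the same order. The part of tissue makeup in the members' differences was not tested.

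FOXJ1 was the only member among the 3 smallest p-values in both cervical and thoracic cord and in summed cord. In treated cervical cord it was at 4.48, 11.2, 11.2 and 18.9 CPM, against 2.55, 2.31, 4.79 and 12.3 in controls, so that the groups overlapped. In treated thoracic cord it was at 11.8, 19.4, 9.35 and 12.9 CPM, all above the 4 controls, which reached 8.76. It was the only member of 56 whose thoracic groups did not overlap, beside 2.02% of all genes. The FOXJ1 differences were 1.25 ± 0.43 in cervical (adjusted p = 0.504 by edgeR) and 1.03 ± 0.30 in thoracic cord (adjusted p = 0.981).

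In lumbar cord FOXJ1 was at 0, 4.65, 6.90 and 9.75 CPM in the treated and 0, 5.35, 6.94 and 3.55 in the control libraries (0.20 ± 1.63, adjusted p = 1.0), and its difference was 0.37 without both libraries at 0. Leaving out 1 lumbar library at a time gave values from -0.83 to 2.01. Over animals, with regions summed, the FOXJ1 difference was 0.96 ± 0.37 (adjusted p = 0.858), with 3 of 4 treated animals above all controls. It ranged from 0.63 to 1.18 when each animal was left out in turn, with adjusted p from 0.637 to 1.0. The mitochondrial share exceeded 30% in 3 thoracic libraries, and without libraries over that share the thoracic difference was 1.33 (adjusted p = 1.0).

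The other genes with the smallest p-values in cord did not repeat between regions. CFAP300, a factor for the assembly of dynein arms, was at 1.08, 1.24, 1.4 and 2.56 CPM in treated and 0.190, 0.441, 0.584 and 1.05 in control cervical cord. The groups did not overlap, as for 5.94% of all genes, and the difference was 1.57 ± 0.43 (adjusted p = 0.504). The CFAP97 difference there was -0.29 ± 0.13. In thoracic cord the CFAP73 difference was 2.80 ± 1.01 and that of CFAP206 1.42 ± 0.61, with adjusted p = 0.981 for both. CFAP206 showed the spread behind such values, at 2.02, 7.56, 1.82 and 6.63 CPM in treated and 0.775, 2.80, 1.43 and 1.77 in control thoracic cord.

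In lumbar cord the smallest p-values belonged to CFAP46 (-1.73 ± 0.66), DRC7 (-1.97 ± 0.94) and DNAH1 (-1.0 ± 0.57), with adjusted p of 1.0. In summed cord CFAP73 (1.15 ± 0.47) and RSPH9 (0.51 ± 0.27) followed FOXJ1, with adjusted p = 0.858. In summed cord the differences of RFX2 and RFX3 were 0.28 ± 0.25 and -0.25 ± 0.38. That of IQCK was 0.01 ± 0.13, with 199 ± 27.4 CPM over 4 control animals and 194 ± 17 over 4 treated ones.

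In ganglia FOXJ1 had the opposite sign. Cervical ganglia of treated animals were at 1.12, 0.680, 1.06 and 0.678 CPM against 1.88, 2.06, 1.27 and 1.04 in controls, and lumbar ganglia at 0.585, 0.741, 0.797 and 0.842 against 1.80, 1.81, 1.03 and 1.62. All 4 lumbar treated values lay under the 4 controls, and 6 of the 8 treated values lay under all 8 controls. The FOXJ1 difference was -1.06 ± 0.29 in lumbar ganglia (adjusted p = 0.0856 by edgeR) and -0.93 ± 0.29 in both ganglia (adjusted p = 0.168 by limma). It was called in lumbar ganglia with DESeq2 (-1.08, adjusted p = 0.0131), and in both ganglia with edgeR when animals were ignored (-0.90, adjusted p = 0.0169) or without the cervical ganglion library of treated 4 (-0.93, adjusted p = 0.0443). The shares of all genes called in these other fits are not given here.

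The gene next to FOXJ1 was lower in treated ganglia as well. RNF157, a ubiquitin ligase gene on the same strand whose end lies 1401 bases from the FOXJ1 start, was at 405.8 ± 69.8 CPM in control and 174 ± 28.6 in treated ganglia (SD, n = 8 libraries each) and was called lower (-1.22 ± 0.19, adjusted p = 0.00703 by limma). FOXJ1 counts were 0.00251 to 0.00461 of the RNF157 counts in control ganglia and 0.00355 to 0.00625 in treated ganglia. In cord the ratio was 0 in the 2 lumbar libraries without FOXJ1 counts, and reached 0.0590 in control and 0.151 in treated thoracic libraries, where the lowest were 0.0389 and 0.0913. The part of reads from the RNF157 side in the FOXJ1 values was not tested.

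The FOXJ1 difference in cord minus that in ganglia was 1.84 ± 1.08 (adjusted p = 0.610, limma over 40 libraries). This contrast was added after the values were seen, and called 0.332% of all genes and no member. Without the 2 lumbar libraries that stood apart it was 1.88 (adjusted p = 0.0554), and without these and the cervical library of control 1 it was 1.78 (adjusted p = 0.0826).

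In lumbar ganglia CFAP44, a tether of inner arm dynein that shares 4.50% of its exon bases with BOC, was at 5.48, 6.25, 4.75 and 5.30 CPM in treated and 2.38, 3.70, 3.33 and 3.66 in control libraries. The CFAP44 difference was 0.74 ± 0.20 (adjusted p = 0.0821), and it was called with DESeq2 (adjusted p = 0.00813) and with total counts (adjusted p = 0.0305). The CFAP410 difference was -0.52 ± 0.16 (adjusted p = 0.102), called with DESeq2 (adjusted p = 0.0216). How many of all genes were called with DESeq2 or with total counts is not given here. The lumbar groups did not overlap for 5 of 50 members, CFAP44, CFAP298 and RSPH4A with treated higher and FOXJ1 and DNAH17 with treated lower, beside 16% of all genes. In cervical ganglia the DRC1 difference was -0.62 ± 0.26 (adjusted p = 0.656) and that of CFAP300 1.01 ± 0.48 (adjusted p = 0.713). Over both ganglia 33 of 55 members were positive with a median of 0.07, beside 56.7% of genes, and CFAP298 (0.33 ± 0.14) and DNAH9 (-0.44 ± 0.24) followed FOXJ1.

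In liver 32 members were tested and 16 were positive, with a median of 0.06 beside 51.9% of genes. CFAP43, a partner of CFAP44, was at 3.29, 2.14, 5.24 and 4.87 CPM in treated and 10.4, 2.76, 10.4 and 8.56 in control liver, and the groups overlapped (-1.09 ± 0.39, adjusted p = 0.494). The DNAH9 difference was 0.96 ± 0.42 (adjusted p = 0.602) and that of CFAP36 -0.24 ± 0.10 (adjusted p = 0.611). FOXJ1 and TEKT1 were too low in liver to be tested.

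**Figure D5:**
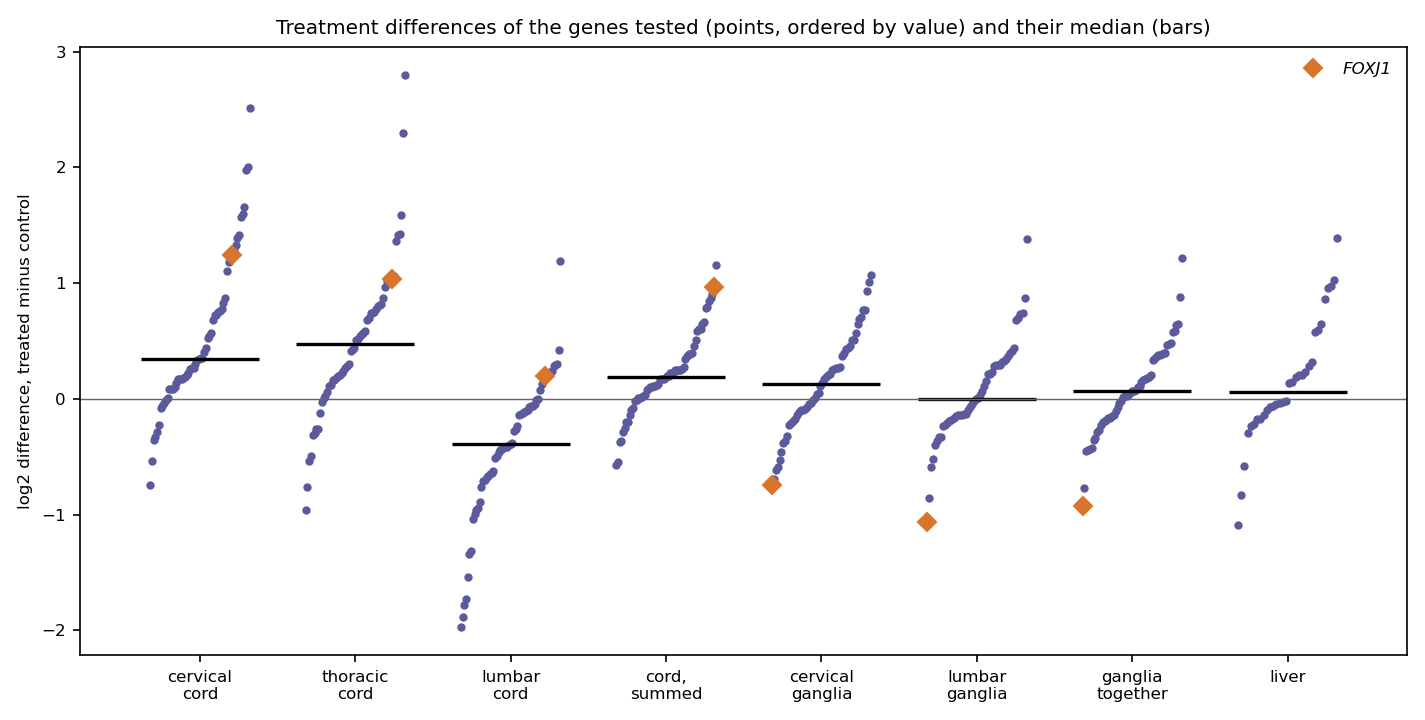
Log2 difference between treated and control (vertical axis) of the members tested in each of the 8 comparisons (horizontal axis); points are genes ordered by value, bars the medians, and diamonds FOXJ1. Medians are 0.35 in cervical, 0.47 in thoracic and -0.39 in lumbar cord, FOXJ1 is above 0 in the cord comparisons and below 0 in the ganglia, and no point passed the test.

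Genes that work with these members but carry other names were read from 4 lists. Of the 33 other axonemal genes tested, 20 were called higher and 2 lower in cord than in ganglia (median 1.08), and 30 higher and 1 lower than in liver (median 2.88), beside 32.4% and 42.2% of all genes called higher. PIFO, which encodes a ciliary protein, was at 12.2 ± 6.24 CPM in cord and 2.58 ± 0.631 in ganglia (2.15 ± 0.22), and NME9 at 4.32 ± 2.15 and 0.677 ± 0.237 (2.55 ± 0.30). WDR63, an inner arm intermediate chain, was lower in cord, at 7.70 ± 3.19 CPM against 42.4 ± 9.15 in ganglia (-2.52 ± 0.21). GAS8, a subunit of the regulatory complex, was lower in cord than in liver (15.9 ± 3.94 against 113 ± 16 CPM, -2.85 ± 0.13).

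Of 8 regulators of multiciliation tested, 4 were higher and 2 lower in cord than in ganglia, a contrast that called 61.9% of all genes. GMNC, which acts upstream of FOXJ1 in multiciliated cells, was at 2.36 ± 2.31 CPM in cord and 0.153 ± 0.0926 in ganglia (3.68 ± 0.68). Of 7 dynein assembly factors, 4 were higher and none lower, beside 61.9% of all genes called and 32.4% called higher. ZMYND10 was at 4.21 ± 2.29 against 1.18 ± 0.274 CPM (1.76 ± 0.31). Of 23 genes of intraflagellar transport, which primary cilia use as well, 11 were higher and 5 lower, again beside 61.9% of all genes called, with IFT80 (-1.16 ± 0.08) and the kinesin gene KIF3B (-0.77 ± 0.09) among the latter.

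Treatment called 1 gene on these lists, in lumbar ganglia, where 4.29% of all genes were called. KIFAP3, the adaptor of the transport kinesin, was lower in treated lumbar ganglia (280 ± 34.6 against 442 ± 71.5 CPM, -0.64 ± 0.14, adjusted p = 0.0463 by edgeR). The other axonemal genes were positive for 25 of 33 in cervical, 27 of 32 in thoracic and 11 of 33 in lumbar cord, and for 24 of 33 in summed cord. The shares of all genes were 50.5%, 50.0%, 48.8% and 51.3% in the same order. These counts come from the same libraries as those of the members and are no separate test. Counts for this list without treated 2 or control 2 were not computed. ENKUR, a calmodulin-binding protein of doublet microtubules, had the smallest p-value among the other axonemal genes in summed cord (0.76 ± 0.29, adjusted p = 0.858).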

How the data were processed

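RNA-seq counts were deposited by the authors as 1 table of raw reads per gene name, which per the file headers came from featureCounts (version 1.4.6-p1) run with no option for strand or read pairs, so each mate counts as 1 read. Reads were aligned with STAR 2.5.3a to Macaca_fascicularis build 5.0 with Ensembl release 94, per the submitters' processing notes. Total counts per library ran from 35453786 to 53480762.

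Groups came from the sample titles and animals from their descriptions. Counts were scaled with TMM, genes filtered with filterByExpr, and treated compared with control in each tissue, and over cord counts summed per animal, by the quasi-likelihood test of edgeR 4.0.16 with sex as covariate, in R 4.3.3. Both ganglia together, and the change of treatment effect between cord regions or between cord and ganglia, were fitted with limma 3.58.1 (voom, animal as random block). Organs (24 control libraries) and cord regions (24 libraries) were compared by edgeR with animal as fixed block. P-values were adjusted by Benjamini-Hochberg over all genes tested at a threshold of 0.05, and DESeq2 1.42.0 served as an alternative. The tests were tested on simulated data. A fold against a group with 0 counts uses 3 counts over that group's TMM-scaled library sizes as floor, which covers counting error alone. P-values for treatment measure the spread between these animals. Those for organs and cord regions measure the spread between libraries that is left after the animal term. In these fits several regions of the same animal count as separate libraries.

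The members and gene lists were chosen with earlier results of these data known. Named with values were FOXJ1, RFX2, RFX3 and IQCK, the highest and lowest members per class in control cord, the largest organ differences and the smallest p-values of each treatment comparison; members named for a pattern in single libraries were chosen after their values were seen. Alternatives added after seeing the data were total-count scaling, the contrast of treatment between cord and ganglia, and leaving out the libraries that stood apart. Whether same-numbered control and treated libraries deviate together was checked from the correlation of their deviations from the group means. Only the lumbar cord numbers met the rule (0.92, 0.19, 0.79 and 0.51, each above 0.1), and a number there marks no shared animal. No pair of libraries of a group agreed within sampling noise: over the 72 pairs, chi-square per degree of freedom was at least 31.6. No sequences were used here. One marker gene, and the summed level of the list that holds it, are not reported here.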

Additional observations from a re-analysis of the deposited data

Results flagged for a closer look

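Of 40 groups of 4 libraries examined for a value far from the other 3, 3 had one. For normally distributed values chance alone marks about 1 in 20 such groups. The groups were those of the genes with the smallest treatment p-values and of FOXJ1, and some held few reads. That rate may thus not apply to them. DRC7 was at 0.0365 CPM in the lumbar cord library of control 1, against 0.518 to 0.580 CPM in the other 3 lumbar controls, which is the library with almost no MOG. DRC7 was at 0.420 CPM in the lumbar cord library of treated 4, against 0.0348 to 0.0731 CPM in the other treated lumbar libraries. DNAH9 was at 9.25 CPM in the liver library of control 3, against 1.84 to 2.14 CPM in the other control livers, and the 4 treated livers lay at 5.20, 3.90, 9.64 and 8.21 CPM.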

How the results depend on the processing

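Over 16 comparisons and 242 alternative settings the count of members called stayed within 1.5 times the reported one in 217, and of 1422 values for single genes 1338 kept direction and side of the threshold, 49 lost a call, 13 gained one and 22 changed sign. Where a count or sign moved, the cause was not tested. In lumbar ganglia DESeq2 called 3 members (CFAP44, FOXJ1 and CFAP410) and total counts 2 (CFAP44 and CFAP298). The reported fit there called no member and 4.29% of all genes. The shares of all genes called in the alternative fits are not given here, so these counts do not set the members apart. In both ganglia edgeR with animals ignored called 1 (FOXJ1), and leaving out each animal gave 0 to 2. Thoracic against cervical cord gave 12 calls, 7 with no replicate block, 1 in control animals alone, 0 in treated animals alone and 7 to 12 without each animal. Lumbar against thoracic cord gave 14, with 4 in control and 2 in treated animals alone and 9 to 12 without each animal. Lumbar against cervical cord gave 2, with 0 under total counts, no replicate block, control animals alone or treated animals alone, 1 without the 2 lumbar libraries that stood apart, 1 without these and the cervical library of control 1, and 0 to 3 without each animal. The fits with the replicate block changed no member's call for treatment.

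Signs changed for few genes. In summed cord IQCK was at -0.029 without the 2 lumbar libraries, -0.050 without 3 libraries, -0.048 in cervical and thoracic cord alone, -0.050 by limma over 21 libraries and -0.026 to 0.034 without each animal, and RFX3 at -0.51 to 0.057. FOXJ1 in lumbar cord ran from -0.83 to 2.01. Cord against ganglia in treated animals gave 0.21 for CFAP73. Total counts gave 0.18 for CFAP58, 0.72 for CFAP97 and 0.42 for CFAP20 between cord and liver, and 0.37 for CFAP126, 0.83 for CFAP298, 0.55 for CFAP70, 0.45 for CFAP20 and 0.84 for RFX3 between ganglia and liver. CFAP58 between cord and liver ran from -1.65 to 0.62 without each animal. Members under about 1 CPM rest on few reads per library.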
